A study of Mus musculus with 5 samples.

Results

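The comparison set caudate putamen punched 10 days after a focal stroke against caudate putamen from the sham side, as 2 of the 5 RNA sequencing libraries of the study. The day 10 library pooled the right focal region of 6 male C57BL/6 mice aged 9 weeks, and the sham library pooled punches of the left side of such mice. On the right, the dye rose bengal was given at 100 mg/kg, and a fibre 3 mm below the dura then lit the tissue for 2 min (532 nm, 30 mW), which clots the vessels it reaches (photothrombosis). On the left the fibre and the same light came before the dye. As labelled, the sham tissue therefore belongs to operated animals with a stroke in the other hemisphere; the sources used here do not say how many mice it pools or at which times. The other 3 libraries, 4 hours, 1 day and 3 days after stroke, likewise pool 6 animals each and are used here only to place the day 10 level. Every group is 1 library, so no difference below has a replicate check and no test between conditions was made.

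A gene's level is its deposited RPKM, reads scaled by transcript length and library total. The difference is given as log2((day 10 RPKM + 1) / (sham RPKM + 1)), called the log2 fold, which understates the differences of low genes. Of 19221 genes in the table, 12783 reached 1 RPKM in at least 1 of the 5 libraries and were analysed, and "higher" or "lower by size" means a log2 fold of at least 1 or at most -1. Counting intervals are exact 95% intervals of the ratio of recovered reads and cover counting error only. The read totals behind the values were 48013847 at day 10 and 44924677 in sham, where 1 read on a gene of 2 kb is worth 0.0104 RPKM at day 10 and 0.0111 RPKM in sham.

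The tissue label held in both libraries. Ppp1r1b, which encodes the striatal phosphoprotein DARPP-32, was at 849 RPKM at day 10 and 1019 RPKM in sham, and Drd2, the dopamine receptor gene of indirect-pathway neurons, at 69.5 RPKM at day 10 and 73.8 RPKM in sham. Ribosomal RNA loci took 37.4% of gene reads at day 10 and 41.2% in sham, and the mitochondrial genome 2.75% at day 10 and 3.98% in sham. The sham library stood above the 4-hour library for some genes, among them Timp1, an inhibitor of metalloproteinases, at 0.368 RPKM at 4 hours and 11.1 RPKM in sham. The median log2 fold of 4 hours over sham was -0.61 for reactive astrocyte genes, -0.11 for disease-associated microglia genes and 0.62 for immediate early genes. Myelinating oligodendrocyte and axon growth genes stood at 0.70 and 0.77, and homeostatic microglia genes at 0.09. These medians are unscaled, and by the median-of-ratios scaling described below the 4-hour library lay 0.37 above sham on the log2 scale. When the 4-hour library took the place of sham, an alternative chosen after seeing the data, 777 genes were higher by size at day 10 and 456 lower. Those counts are unscaled as well.

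After a stroke, microglia and incoming macrophages take up dead cells and myelin, digest them in lysosomes, and export the lipid through apolipoproteins and sterol transporters. Antigen presenting cells load peptides on class I molecules in the endoplasmic reticulum and on class II molecules in endosomes, and show them to CD8 and CD4 T cells. In mouse models, the second week after ischaemia is a time of clearance, glial scar formation and remodelling.

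Of the 12783 genes, 537 were higher by size at day 10 (4.20%) and 22 were lower (0.172%). Among 10108 protein coding genes, 435 were higher (4.30%) and 3 were lower (0.0297%). Day 10 was the highest of the 5 libraries for 1494 genes (11.7%). As deposited, 60.9% of all analysed genes had a positive log2 fold, the share to set beside counts of positive or negative list members below. Likewise, the shares of 4.20% higher, 0.172% lower and 11.7% with day 10 highest are to be set beside list counts of those kinds. The median log2 fold of all analysed genes was 0.07 as deposited and -0.04 after median-of-ratios scaling. That scaling divides the day 10 RPKM by a factor of 0.16 on the log2 scale before the pseudocount and the filter are applied. Low genes therefore move less, and a few members drop out of the list medians while none can enter them. That scaling left 433 genes higher and 28 lower. List medians after this scaling are given below as "scaled". The 15 protein coding genes with the highest log2 folds were Cst7, Lyz2, Saa3, Gm44805, Gpnmb, Apoc2, Apoc1, Lgals3, Cd52, Spp1, H2-Aa, H2-Ab1, Trem2, Ifi27l2a and C1qa. Gm44805 shares exons with Apoc2 and Apoc4 on the same strand, so its reads cannot be told from theirs. Where the annotation places another gene over a named gene's exons, the value is uncertain in the same way. Beyond those said below, this holds on the same strand for Spp1, S100a4, Mobp, Col3a1, Cd74, Nr1h3 and mt-Co3. As the use of strand in counting is not stated, it also holds for genes with a partner on the opposite strand, namely Cd52, Hexa, Grn, Stab1, Cd3e, Slc1a2, Cxcl10, Cxcl16, Gpr17, Penk, Ppp1r1b, Rarb, Kcnj13, Alas2, Tap2, Psmb8, Nlrc5, Pdia3, H2-DMa, H2-Oa, Ciita, Irf7, Gbp2, Fcgr2b, Atp6v0b, Cd274, Il1b, Il18bp, Pycard, Slc32a1, Grin1 and Tspo.

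**Figure D1:**
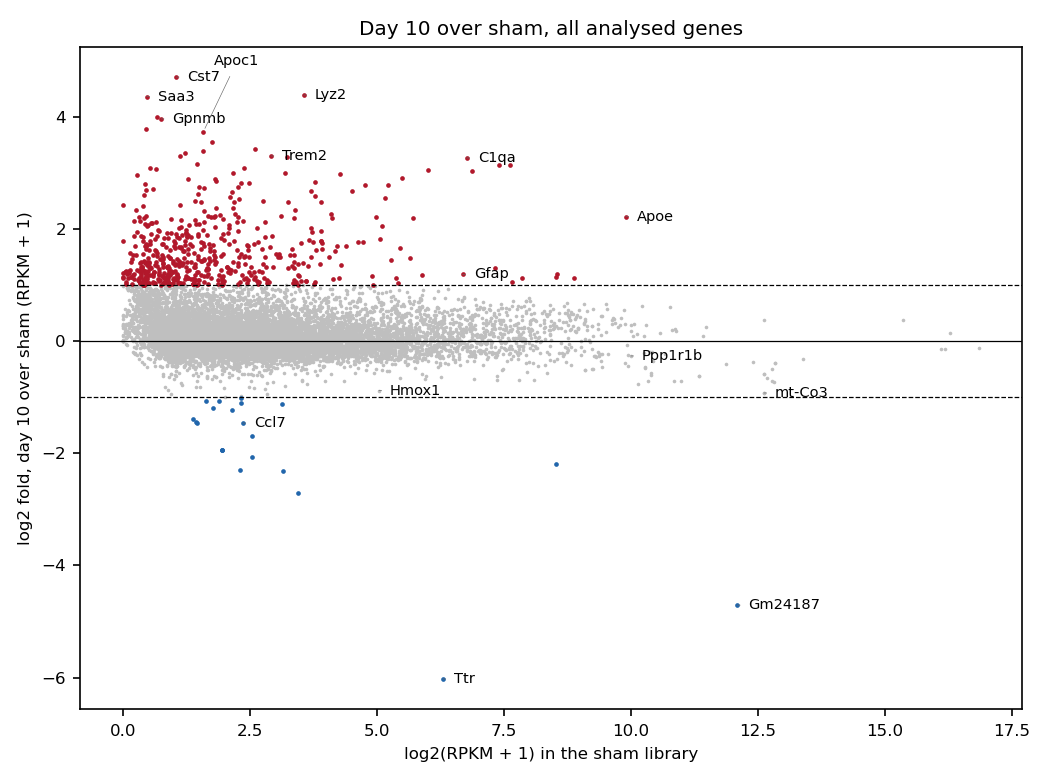
Each point is 1 of the 12783 analysed genes, with log2(RPKM + 1) in the sham library on the horizontal axis and the log2 fold of day 10 over sham on the vertical axis. Red points are the 537 genes higher by size and blue points the 22 lower, and the dashed lines mark the size limit, with Ttr at -6.02 the lowest gene.

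Genes of activated microglia were far above sham at day 10. Cst7, an inhibitor of lysosomal cysteine proteases, was at 52.9 RPKM at day 10 and 1.06 RPKM in sham (log2 fold 4.71, ratio 49.9, interval 33.2 to 78.5). In the other libraries it was at 0.132 RPKM at 4 hours, 1.42 RPKM at day 1 and 13.3 RPKM at day 3. Of the 20 genes of the disease-associated microglia list, a state first described around amyloid plaques, 17 were higher by size, none was lower, and the median was 2.16 (scaled 2.03), beside 4.20% of all analysed genes higher and their median of 0.07. In 10 of the 20, day 10 was the highest library, beside 11.7% of all genes. The unscaled median of this list for day 3 over sham was 2.11, close to that of day 10. Gpnmb, a glycoprotein of lipid-laden phagocytes, was at 25.2 RPKM at day 10 and 0.677 RPKM in sham (ratio 37.2, interval 30.4 to 45.8). Trem2, the lipid-sensing receptor needed for this state in mice, was at 73.2 RPKM at day 10 and 6.52 RPKM in sham, and its adaptor Tyrobp at 335 RPKM at day 10 and 43.9 RPKM in sham. Clec7a, the receptor Dectin-1, was at 4.11 RPKM at day 10 and 0.160 RPKM in sham, where 4 hours, day 1 and day 3 gave 0.0412, 0.556 and 0.987 RPKM. Itgax, the integrin CD11c, was at 1.49 RPKM at day 10 and 0.158 RPKM in sham, and at 0.532 RPKM at day 3. Lgals3, galectin-3, and Spp1, osteopontin, were also high, at 38.5 and 30.3 RPKM at day 10 against 2.37 and 1.97 RPKM in sham, but day 3 had been higher for both, at 198 and 62.2 RPKM. The 3 members under the size limit were Igf1, Fabp5 and Lpl, with log2 folds of 0.95, 0.89 and 0.35. In pooled tissue, more or fewer cells of a type and more or less RNA per cell cannot be told apart.

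Markers of resting microglia also lay above sham. All 12 homeostatic microglia markers had positive log2 folds, 9 of 12 were higher by size, and the median was 1.44 (scaled 1.298). Fcrls, an Fc receptor-like gene of mouse microglia, was at 52.6 RPKM at day 10 and 8.54 RPKM in sham (log2 fold 2.49, ratio 6.16, interval 5.57 to 6.82). Tmem119, which marks resident microglia rather than incoming macrophages, was at 46.2 RPKM at day 10 and 14.0 RPKM in sham (1.65). The purinergic receptor gene P2ry12, whose exons are overlapped by Med12l on the opposite strand, was at 2.72 RPKM at day 10 and 0.857 RPKM in sham (1.00), against 0.170 RPKM at day 1. Sall1, a transcription factor of microglial identity, was at 3.01 RPKM at day 10 and 1.04 RPKM in sham (0.98). Day 10 was the highest library for 6 of the 12, beside 11.7% of all analysed genes.

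Myeloid transcription factor genes had 6 of 9 analysed members higher by size and a median of 1.60 (scaled 1.47) that was 0.88 without the filter. Irf8, an interferon regulatory factor of the myeloid lineage, was at 8.13 RPKM at day 10 and 1.51 RPKM in sham, and Spi1, which encodes PU.1, at 14.7 RPKM at day 10 and 3.56 RPKM in sham. Tfeb, a regulator of lysosomal genes, was at 3.05 RPKM at day 10 and 1.85 RPKM in sham (0.51).

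Markers of other myeloid cells varied more among themselves. In the list of monocytes and monocyte-derived macrophages, 4 of 7 analysed genes were higher by size (median 1.09, scaled 0.96, and 0.58 without the filter), led by Lyz2, macrophage lysozyme, at 245 RPKM at day 10 and 10.7 RPKM in sham (4.39), and S100a4, a calcium-binding protein of motile cells, at 31.2 RPKM at day 10 and 3.81 RPKM in sham (2.74). Ccr2, the receptor that defines inflammatory monocytes, was at 0.0709 RPKM at day 10 and 0.0198 RPKM in sham, and stayed under the filter. Arg1, an arginase of alternatively activated macrophages, was at 0.0841 RPKM at day 10 and 0.160 RPKM in sham, after 10.2 RPKM at day 3. Among border-associated macrophage markers, Mrc1 and Cd163 were at 0.0752 and 0.175 RPKM at day 10 against 0.0314 and 0.212 RPKM in sham, and Stab1, a scavenger receptor, was at 5.41 RPKM at day 10 and 1.04 RPKM in sham (1.65). Neutrophil genes had a median of -0.09 (scaled -0.22) over 4 analysed members. The neutrophil alarmins S100a9 and S100a8 were at 5.59 and 3.93 RPKM at day 10 against 5.50 and 4.65 RPKM in sham, and only Csf3r, a receptor gene that microglia also express, was higher by size (2.16).

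**Figure D2:**
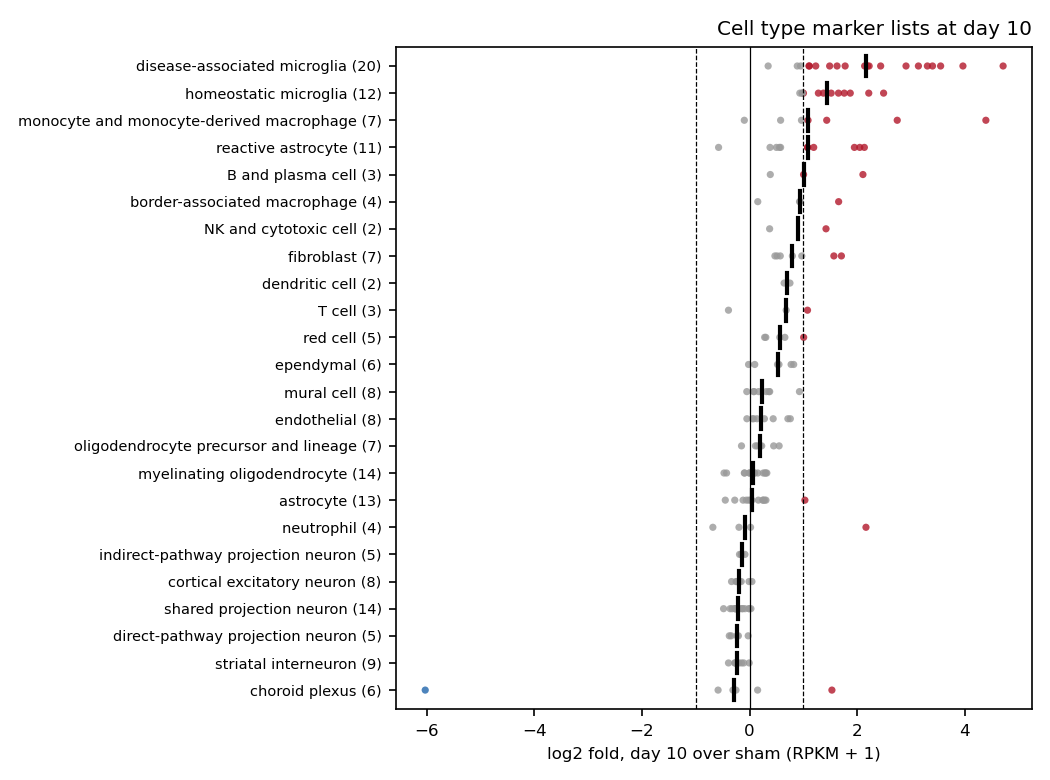
Each row is a cell type marker list with its number of analysed genes, each point is 1 gene's log2 fold of day 10 over sham, and the black bar is the list median. Microglial lists have medians of 2.16 and 1.44, the 4 lists of striatal neurons lie slightly below 0 with no member beyond the dashed size limits, and Ttr at -6.02 stands alone in the choroid plexus list.

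Genes of class II antigen presentation had the highest median of the 69 lists with the filter on low values. Of 10 analysed class II genes, 8 were higher by size, the median was 2.70 (scaled 2.55), and in 8 of the 10 day 10 was the highest library. Without the filter the class II median was 1.69, below the 2.16 of disease-associated microglia genes. H2-Aa and H2-Ab1, the alpha and beta chains of I-A, were at 22.5 and 20.6 RPKM at day 10 against 1.31 and 1.18 RPKM in sham (3.35 and 3.30). At day 3 they had been at 3.12 and 9.40 RPKM. Cd74, the invariant chain that guards the peptide groove, was at 43.1 RPKM at day 10, 8.88 RPKM at day 3 and 4.20 RPKM in sham. Ctss, cathepsin S, which trims the invariant chain, was at 151 RPKM at day 10 and 18.3 RPKM in sham (2.98, ratio 8.27, interval 7.57 to 9.04). Among the peptide editors, H2-DMb1 was at 7.24 RPKM at day 10 and 1.21 RPKM in sham (1.90), while its partner H2-DMa was at 10.8 RPKM at day 10 and 5.93 RPKM in sham (0.77). H2-Oa, which restrains that editor and is known mainly from B cells, was at 4.30 RPKM at day 10 and 0.898 RPKM in sham (1.48). Ciita, the master activator of these genes, was at 0.190 RPKM at day 10 and 0.0424 RPKM in sham, and was between 0.0497 and 0.0616 RPKM in the other 3 libraries. The costimulatory genes Cd86 and Cd40 were at 0.882 and 0.257 RPKM at day 10 against 0.103 and 0.0784 RPKM in sham, both under the filter. For 8 of the 10 genes the recovered reads were not whole, so only Ctss and Ifi30 have a counting interval.

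Promoters of class II genes carry an X box, bound by RFX factors, and a Y box, bound by NF-Y. The promoters of 2 such genes are printed to show where letters that match both lie. The sequences are RefSeq promoters on GRCm38.p6, from 250 bases before to 50 after the annotated start, on the gene's strand and 5′ to 3′. Capitals mark the X box core (AG, any 2 bases, AC, any 1 base, GATG) and the Y box CCAAT, each searched on both strands; the matches shown do not overlap each other.
H2-Eb1 (chr17:34305617-34305916, + strand): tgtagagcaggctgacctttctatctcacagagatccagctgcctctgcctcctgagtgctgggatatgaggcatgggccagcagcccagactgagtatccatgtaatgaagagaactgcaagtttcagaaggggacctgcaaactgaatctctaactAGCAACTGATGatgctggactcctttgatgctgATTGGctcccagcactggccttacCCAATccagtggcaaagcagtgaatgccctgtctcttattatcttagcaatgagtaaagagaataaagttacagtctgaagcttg
H2-Oa (chr17:34092129-34092428, + strand): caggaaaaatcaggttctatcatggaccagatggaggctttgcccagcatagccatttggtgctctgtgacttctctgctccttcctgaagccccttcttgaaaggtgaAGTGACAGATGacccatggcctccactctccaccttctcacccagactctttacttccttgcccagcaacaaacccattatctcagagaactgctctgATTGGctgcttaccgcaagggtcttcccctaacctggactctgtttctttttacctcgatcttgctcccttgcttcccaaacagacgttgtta
In H2-Eb1 the X box core begins at position -92 from the start and CCAAT matches begin at -59 and -35. In H2-Oa a match to the X box core begins at -141 and a CCAAT match at -43, further apart than in H2-Eb1. Whether the H2-Oa match is the X box of that gene was not tested. Of the 8 analysed list genes with a promoter entry, 3 matched the X box core (H2-Eb1, H2-DMb1 and H2-Oa) and 6 held CCAAT. The shares were 0.994% and 42.7% of the 8148 analysed genes with an entry, and 0.968% and 37.4% of all 32851 promoters. Of the 345 genes higher by size with an entry, 1.45% matched the X box core and 37.1% held CCAAT. These are matches of letters only.

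Class I genes were also high. Of 17 analysed class I and peptide loading genes, 14 were higher by size, all 17 had positive log2 folds, the median was 1.69 (scaled 1.55), and day 10 was the highest library for 13. H2-D1, a classical heavy chain, was at 254 RPKM at day 10 and 35.8 RPKM in sham (2.79, ratio 7.09, interval 6.77 to 7.42). H2-K1, the other classical heavy chain, was at 187 RPKM at day 10 and 26.1 RPKM in sham (2.79). B2m, their common light chain, was at 238 RPKM at day 10 and 51.3 RPKM in sham (2.19). The nonclassical H2-Q7 was at 19.1 RPKM at day 10 and 2.01 RPKM in sham (2.74). H2 genes are near-identical copies of each other, so how their reads were shared out is uncertain. The immunoproteasome genes Psmb8 and Psmb9 were at 21.3 and 5.62 RPKM at day 10 against 3.81 and 0.846 RPKM in sham. The peptide transporter subunits differed, with Tap1 at 1.48 and Tap2 at 0.72, and Tap1 overlaps Psmb9 on the opposite strand. The general chaperones of loading, Calr and Pdia3, had log2 folds of 0.35 each. Nlrc5, the class I counterpart of Ciita, was at 0.552 RPKM at day 10 and 0.118 RPKM in sham, under the filter.

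Interferon response genes had a lower median than either antigen presentation list. Every one of the 22 analysed members had a positive log2 fold, beside 60.9% of all analysed genes. Of the 22, 10 were higher by size, and the median was 0.95 (scaled 0.83), which was 1.67 over the genes that reached 5 RPKM in any library. Ifi27l2a was at 90.4 RPKM at day 10 and 8.37 RPKM in sham (3.29), and Lgals3bp at 96.4 RPKM at day 10 and 12.7 RPKM in sham (2.83). Bst2, tetherin, which holds budding virus at the membrane, was at 82.1 RPKM at day 10 and 13.8 RPKM in sham (2.49). The sensor gene Oas1a had a log2 fold of 2.18, and Irf7, the regulator that amplifies interferon output, was at 19.5 RPKM at day 10 and 3.73 RPKM in sham (2.12). Ifit1, Ifit2 and Ifit3, which bind foreign RNA, had 0.63, 0.71 and 0.92, and Gbp2, a guanylate-binding protein, was at 2.96 RPKM at day 10 and 2.63 RPKM in sham (0.13). Cxcl10, an interferon-induced chemokine, was at 5.03 RPKM at day 10 and 7.99 RPKM in sham (-0.58), and is a member of the CXC chemokine and reactive astrocyte lists.

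The interferon-stimulated response element is bound by STAT and IRF complexes, and the site GAGGAAGT is one form of the PU.1 motif. Promoters of 4 higher genes are printed from the same RefSeq table to show these letters. Capitals mark GAAA, any 2 bases, GAAA for the response element and, in Ctss and Fcgr4, also GAGGAAGT for PU.1, both strands searched.
B2m (chr2:122147437-122147736, + strand): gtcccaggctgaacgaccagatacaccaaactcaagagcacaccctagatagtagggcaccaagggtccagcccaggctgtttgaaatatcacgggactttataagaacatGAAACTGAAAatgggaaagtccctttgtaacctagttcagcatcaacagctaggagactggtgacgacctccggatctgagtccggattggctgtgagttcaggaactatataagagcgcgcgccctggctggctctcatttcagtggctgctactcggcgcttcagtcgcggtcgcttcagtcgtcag
Bst2 (chr8:71537423-71537722, - strand): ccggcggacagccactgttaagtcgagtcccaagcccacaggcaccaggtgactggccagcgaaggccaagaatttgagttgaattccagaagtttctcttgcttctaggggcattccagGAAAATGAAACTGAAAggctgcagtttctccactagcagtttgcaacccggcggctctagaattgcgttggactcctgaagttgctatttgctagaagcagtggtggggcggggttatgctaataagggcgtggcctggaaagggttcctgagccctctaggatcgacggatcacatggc
Ctss (chr3:95526536-95526835, + strand): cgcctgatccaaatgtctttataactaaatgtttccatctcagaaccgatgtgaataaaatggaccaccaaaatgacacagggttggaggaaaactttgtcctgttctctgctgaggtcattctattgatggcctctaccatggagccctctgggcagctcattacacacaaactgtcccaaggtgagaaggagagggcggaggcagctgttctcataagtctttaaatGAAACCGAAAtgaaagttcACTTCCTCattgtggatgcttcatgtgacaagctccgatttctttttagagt
Fcgr4 (chr1:171018676-171018975, + strand): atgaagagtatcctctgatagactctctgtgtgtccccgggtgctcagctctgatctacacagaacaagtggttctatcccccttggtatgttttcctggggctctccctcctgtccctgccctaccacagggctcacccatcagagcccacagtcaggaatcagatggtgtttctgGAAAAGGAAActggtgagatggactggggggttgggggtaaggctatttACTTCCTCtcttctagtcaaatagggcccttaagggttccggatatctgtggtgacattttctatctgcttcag
The response element begins at -139 in B2m, at -130 and -124 in Bst2, where the 2 matches overlap, at -21 in Ctss and at -73 in Fcgr4. The PU.1 match begins at -2 in Ctss and at -24 in Fcgr4. The response element was in 3.44% and GAGGAAGT in 3.20% of all promoters. Of the 345 genes higher by size that had a promoter entry, 9.57% held the response element and 8.99% held GAGGAAGT, beside 3.56% and 3.46% of the 8148 analysed genes with an entry. Among 17 interferon genes with an entry, 11 held the response element. The lysosomal element TCACGTGA was in 1.16% of the higher genes and 2.16% of the analysed genes. No test was run on these shares, and a match is not a bound site.

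Complement and Fc receptor genes were high as well. The 3 chains of C1q, which tags synapses and debris, were the most abundant of the complement list. C1qa was at 1044 RPKM at day 10 and 108 RPKM in sham (3.27, ratio 9.71, interval 9.32 to 10.1), and C1qb and C1qc had log2 folds of 3.04 and 3.06. C3, the central component, was at 3.62 RPKM at day 10, 0.575 RPKM at day 3 and 0.199 RPKM in sham (1.95, ratio 18.2, interval 11.98 to 29.0). C4b was at 24.4 RPKM at day 10 and 5.96 RPKM in sham (1.86). Of 14 analysed members, 9 were higher by size, with a median of 1.65 (scaled 1.52), and the membrane inhibitor Cd59a was at 1.70 RPKM at day 10 and 2.02 RPKM in sham (-0.16). In the Fc receptor list 10 of 11 genes were higher by size and the median was 1.69 (scaled 1.56). Fcgr4, an activating receptor, was at 16.7 RPKM at day 10 and 2.73 RPKM in sham (2.24), and Fcgr2b, the inhibitory receptor, at 5.45 RPKM at day 10 and 1.00 RPKM in sham (1.69). The exception, Fcgrt, the neonatal receptor that recycles antibody, had 0.77.

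Lysosomal genes spread widely within each role. Cathepsin genes, the lysosomal proteases, had 7 of 11 members higher by size and a median of 1.497 (scaled 1.35). Day 10 was the highest library for only 2 of the 11, and their unscaled median for day 3 over sham was 1.96. Ctsd, whose exons are shared with the read-through gene Gm49369, was at 1489.6 RPKM at day 10 and 169 RPKM in sham (3.14). Ctsh was at 24.95 RPKM at day 10 and 2.48 RPKM in sham (2.90), and Ctsz, which overlaps Nelfcd on the opposite strand, at 207 RPKM at day 10 and 34.5 RPKM in sham (2.55). Ctsf and Ctso had 0.35 and 0.16. Of 24 analysed hydrolase and activator genes, 10 were higher by size and the median was 0.86 (scaled 0.72). Grn, progranulin, was at 82.9 RPKM at day 10 and 12.05 RPKM in sham (2.69), and Hexa, a hexosaminidase subunit, had 2.03. At the other end Gaa, which degrades glycogen, and Smpd1, acid sphingomyelinase, had -0.18 and -0.05. Cystatins, which inhibit cathepsins, were led by Cst7, while Cst3, cystatin C, was at 2647 RPKM at day 10 and 1732.7 RPKM in sham (0.61).

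In the lysosomal membrane list, 6 of 18 genes were higher by size, and the median was 0.44 (scaled 0.32), which was 0.19 over the genes that reached 5 RPKM in any library. Laptm5, a membrane protein of haematopoietic cells, was at 144 RPKM at day 10 and 21.7 RPKM in sham (2.68), Cd68, macrosialin, at 81.9 RPKM at day 10 and 12.8 RPKM in sham (2.59), and the iron and manganese transporter Slc11a1 at 6.65 RPKM at day 10 and 1.05 RPKM in sham (1.90). Tcirg1, the a3 subunit of the proton pump found in osteoclasts and phagocytes, had 1.70. The other pump subunits of the list had log2 folds between -0.12 (Atp6v0c) and 0.19 (Atp6v0b). Cd68 had been at 211 RPKM at day 3, above day 10.

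**Figure D3:**
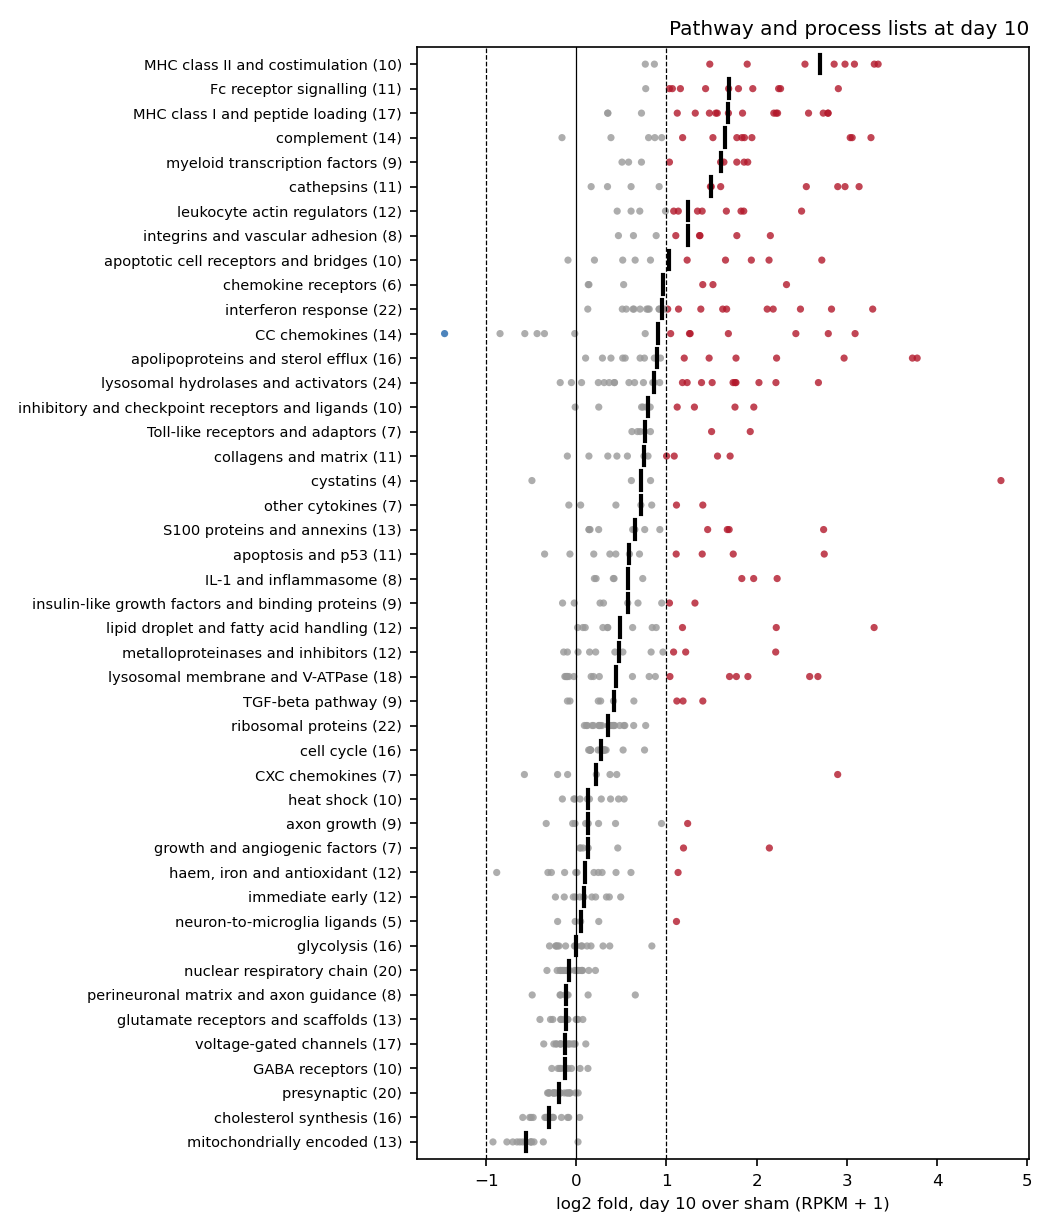
Each row is a pathway or process list with its number of analysed genes, each point is 1 gene's log2 fold of day 10 over sham, and the black bar is the list median. Class II has the highest median at 2.70, CC chemokines spread from -1.46 to 3.09, and cholesterol synthesis and mitochondrially encoded genes lie lowest at -0.30 and -0.56.

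Lipid transport genes lay above sham to very different degrees, and cholesterol synthesis genes slightly below it. All 16 apolipoprotein and sterol efflux genes had positive log2 folds, 7 of 16 were higher by size, the median was 0.90 (scaled 0.76), and day 10 was the highest library for 11. Apoe, the main lipid carrier of the brain, was at 4442 RPKM at day 10, 1096 RPKM at day 3 and 952 RPKM in sham (2.22, ratio 4.67, interval 4.62 to 4.71). The neighbouring apolipoprotein genes were low in sham. Apoc1 was at 38.4 RPKM at day 10 and 1.97 RPKM in sham (3.73). Apoc4 was at 8.41 RPKM at day 10 and 0.202 RPKM in sham (2.97), and Apoc2 at 17.6 RPKM at day 10 and 0.356 RPKM in sham (3.78), both overlapped by Gm44805. Abca1, the transporter that loads cholesterol on apolipoproteins, was at 3.75 RPKM at day 10 and 0.711 RPKM in sham (1.47), while Abcg1 had 0.71. The oxysterol receptors that activate these genes, Nr1h3 and Nr1h2, had 0.29 and 0.10. Plin2, which coats lipid droplets, was at 14.4 RPKM at day 10 and 2.31 RPKM in sham (2.22), against 77.4 RPKM at day 3. None of 16 cholesterol synthesis genes passed the size limit in either direction, beside 4.20% of all analysed genes higher and 0.172% lower. Of the 16, 15 were negative, and the median was -0.30 (scaled -0.40). The lowest were Fdft1, squalene synthase, at 10.3 RPKM at day 10 and 16.0 RPKM in sham (-0.59), and Hmgcs1 at 2.32 RPKM at day 10 and 3.75 RPKM in sham (-0.52). Both overlap a gene on the opposite strand, which for Fdft1 is Ctsb.

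Receptors for dying cells had 5 of 10 analysed members higher by size (median 1.03, scaled 1.08). Cd5l, a secreted macrophage protein, was at 8.92 RPKM at day 10 and 0.503 RPKM in sham (2.72), and Axl, a receptor tyrosine kinase, at 12.9 RPKM at day 10 and 4.95 RPKM in sham (1.23). Its relative Mertk was at 2.09 RPKM at day 10 and 1.17 RPKM in sham (0.52), and the bridging protein gene Mfge8 at 12.8 RPKM at day 10 and 13.7 RPKM in sham (-0.09).

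CC chemokine genes went both ways. Of 14 analysed, 7 were higher by size, 1 was lower, and 6 were negative. Ccl5, a T cell attractant that cytotoxic lymphocytes release, was at 11.3 RPKM at day 10, 2.37 RPKM at day 3 and 0.441 RPKM in sham (3.09, ratio 25.6, interval 13.5 to 55.3). Ccl8 was at 8.36 RPKM at day 10 and 0.348 RPKM in sham (2.79, interval of the ratio 9.08 to 89.7), and Ccl6 at 10.7 RPKM at day 10 and 1.17 RPKM in sham (2.43). Ccl19, a ligand of CCR7, was at 4.78 RPKM at day 10 and 0.796 RPKM in sham (1.69). Ccl3 and Ccl4, the microglial chemokines, had 1.26 each, after 69.1 and 61.3 RPKM at day 1. The ligands of CCR2 on the low side were Ccl7 at 0.858 RPKM at day 10 and 4.11 RPKM in sham (-1.46, ratio 0.209, interval 0.114 to 0.359), Ccl2 at 2.86 RPKM at day 10 and 5.93 RPKM in sham (-0.85, ratio 0.482, interval 0.362 to 0.637) and Ccl12 at 15.3 RPKM at day 10 and 21.1 RPKM in sham (-0.43). At day 1 these 3 had been at 38.7, 83.0 and 206 RPKM. Among CXC genes only Cxcl16, a membrane-bound chemokine for CXCR6, was higher by size, at 17.0 RPKM at day 10 and 1.41 RPKM in sham (2.90). Cxcr4, the receptor for Cxcl12, was at 5.02 RPKM at day 10, 1.07 RPKM at day 3 and 0.197 RPKM in sham (2.33, ratio 25.5, interval 12.7 to 59.8), and Cxcl12 itself was at 1.92 RPKM at day 10 and 1.51 RPKM in sham (0.22).

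**Figure D4:**
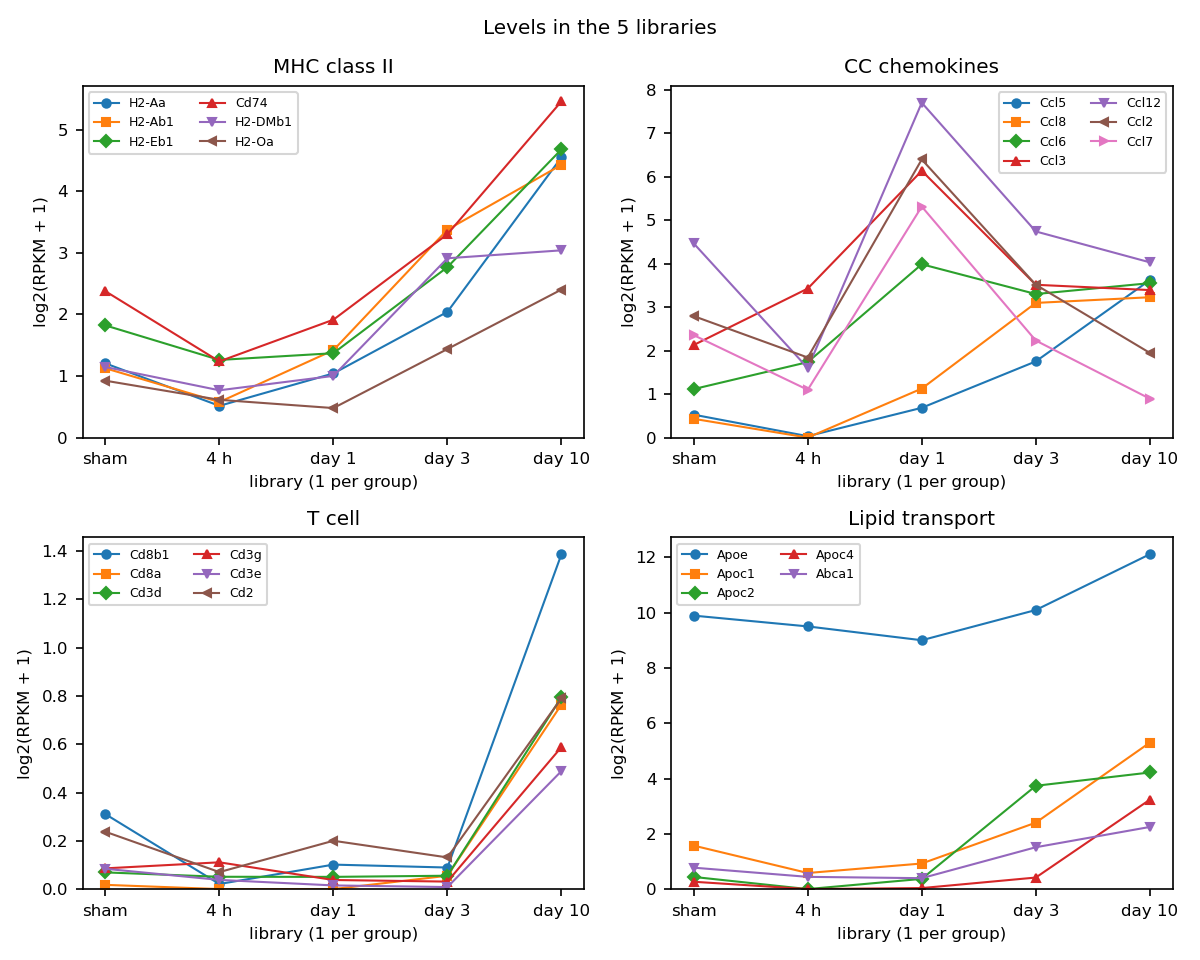
The 4 panels show log2(RPKM + 1) of single genes in the sham, 4-hour, day 1, day 3 and day 10 libraries, 1 library per point. The class II genes, the T cell genes and the lipid transport genes shown are highest at day 10, while Ccl2, Ccl7 and Ccl12 peak at day 1 and are below sham at day 10.

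T cell transcripts were present at low levels. Of 9 T cell genes in the table, 3 passed the filter, of which day 10 was the highest library for 2. Counting those under the filter, day 10 was highest for 8 of 9, beside 15.9% of all genes in the table. Cd8b1 was at 1.62 RPKM at day 10 and 0.240 RPKM in sham (1.08, ratio 6.73, interval 3.19 to 16.3). Under the filter, Cd8a was at 0.699 RPKM at day 10 and 0.0122 RPKM in sham, and at no more than 0.0390 RPKM in the other 3 libraries. The CD3 chain genes Cd3d, Cd3g and Cd3e were at 0.734, 0.503 and 0.403 RPKM at day 10 against 0.0491, 0.0613 and 0.0600 RPKM in sham. Cd4 was the exception, at 8.66 RPKM at day 10 and 11.7 RPKM in sham (-0.39, interval of the ratio 0.677 to 0.813). Among cytotoxic genes, Nkg7 was at 2.39 RPKM at day 10 and 0.268 RPKM in sham (1.42), and Gzmb, granzyme B, at 0.392 RPKM at day 10 and 0.0930 RPKM in sham. The chemokine receptors of activated T cells, Cxcr3 and Cxcr6, were at 0.409 and 0.108 RPKM at day 10 against 0.0643 and 0.0115 RPKM in sham. Igkc, the kappa light chain constant gene of B and plasma cells, was at 5.29 RPKM at day 10 and 0.460 RPKM in sham (2.11, interval of the ratio 4.86 to 34.2), while Cd79a was at 0.0715 RPKM at day 10 and 0.0306 RPKM in sham.

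Of the IL-1 and inflammasome list, 3 of 8 analysed genes were higher by size and all 8 were positive, with a median of 0.58 (scaled 0.51) that was 1.69 with a pseudocount of 0.1 RPKM. Of the other cytokine genes, 2 of 7 were higher by size, with a median of 0.72 (scaled 0.64) that was 1.47 with that pseudocount. Il1b was at 0.939 RPKM at day 10 and 0.163 RPKM in sham (0.74), Tnf at 0.724 RPKM at day 10 and 0.272 RPKM in sham (0.44), and Il6 at 0.0172 RPKM at day 10 and 0.0367 RPKM in sham. Pycard, the inflammasome adaptor ASC, was at 15.3 RPKM at day 10 and 2.49 RPKM in sham (2.23), and Il18bp, which neutralises interleukin-18, at 5.38 RPKM at day 10, 2.13 RPKM at day 3 and 0.633 RPKM in sham (1.97). Tgfb1 was at 5.64 RPKM at day 10 and 1.51 RPKM in sham (1.40), and its receptor gene Tgfbr2 at 3.70 RPKM at day 10 and 1.07 RPKM in sham (1.18). Lgals9 and Vsir, which can restrain T cells, had 1.97 and 1.76, and Cd274, the checkpoint ligand PD-L1, was under the filter at 0.805 RPKM at day 10 and 0.313 RPKM in sham.

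Of collagen and matrix genes, 4 of 11 were higher by size, of metalloproteinases and their inhibitors 3 of 12, and of growth and angiogenic factors 2 of 7. The share over all analysed genes was 4.20%. Col1a1 and Col3a1, the fibrillar collagens of fibroblasts, were at 3.38 and 2.24 RPKM at day 10 against 0.343 and 0.0930 RPKM in sham (1.71 and 1.57), and at day 3 they had been at 0.653 and 0.412 RPKM. Day 10 was the highest library for 5 of the 7 analysed fibroblast markers, beside 11.7% of all analysed genes. Mmp3, a protease of matrix, was at 4.78 RPKM at day 10 and 0.247 RPKM in sham (2.21), and Gdf15, a stress-induced cytokine, at 4.58 RPKM at day 10 and 0.264 RPKM in sham (2.14). Igfbp5, which binds insulin-like growth factors, was at 18.3 RPKM at day 10 and 6.75 RPKM in sham (1.32, ratio 2.71, interval 2.51 to 2.93), and was at 3.51 to 6.54 RPKM in the other 3 libraries. Igf1 itself was at 1.03 RPKM at day 10, 0.867 RPKM at day 3 and 0.0539 RPKM in sham (0.95). Vegfa was at 1.70 RPKM at day 10 and 1.62 RPKM in sham, and endothelial markers had a median of 0.21 (scaled 0.09) with 0 of 8 beyond the size limit. Cell cycle genes had 0 of 16 members higher by size, all 16 positive, and a median of 0.28 (scaled 0.21) that was 1.03 with a pseudocount of 0.1 RPKM. Cdk1 was at 0.511 RPKM at day 10 and 0.0541 RPKM in sham, after 4.94 RPKM at day 3.

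Astrocyte genes differed between the reactive and the general list. Of 11 analysed reactive astrocyte genes, 6 were higher by size, with a median of 1.08 (scaled 0.93) that was 0.57 without the filter. Day 10 was the highest library for only 1 of the 11, and their unscaled median for day 3 over sham was 1.03. The 1 negative member was Cxcl10, given above. Vim, an intermediate filament that microglia and vessels also make, was at 29.3 RPKM at day 10 and 5.90 RPKM in sham (2.13), and Serpina3n, a serine protease inhibitor, at 139 RPKM at day 10 and 33.0 RPKM in sham (2.05). Gfap was at 234 RPKM at day 10 and 102 RPKM in sham (1.19, ratio 2.30, interval 2.24 to 2.35). General astrocyte markers had a median of 0.04 that turned to -0.10 with the scaling. The water channel gene Aqp4 was at 4.30 RPKM at day 10 and 1.60 RPKM in sham (1.03), while Slc1a2, the main glutamate transporter, was at 41.2 RPKM at day 10 and 40.7 RPKM in sham (0.02), and Gjb6, a gap junction gene, at 3.35 RPKM at day 10 and 4.94 RPKM in sham (-0.45).

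Myelin genes were close to sham. None of 14 was beyond the size limit, beside 4.20% of all analysed genes higher and 0.172% lower. The median of 0.06 turned to -0.06 with the scaling. Mbp, myelin basic protein, was at 651 RPKM at day 10 and 611 RPKM in sham (0.09), and Mog had 0.32. At the low end Mal and Mobp had -0.47 and -0.43. Oligodendrocyte precursor and lineage markers had a median of 0.20 (scaled 0.09), led by Gpr17, a receptor of differentiating cells, at 6.29 RPKM at day 10 and 3.98 RPKM in sham (0.55).

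Striatal neuron markers were slightly below sham, within a narrow range and with no member beyond the size limit. Only 4.20% of all analysed genes were higher by size and 0.172% lower, so that count alone does not set these markers apart. The 5 direct-pathway markers had a median of -0.24 (scaled -0.37) and the 5 indirect-pathway markers of -0.15 (scaled -0.30). Drd1, the dopamine receptor gene of the direct pathway, was at 6.30 RPKM at day 10 and 7.596 RPKM in sham (-0.24, ratio 0.830, interval 0.738 to 0.932). Drd2 had -0.09 with an interval of the ratio of 0.902 to 0.983, and Penk, enkephalin, was at 388 RPKM at day 10 and 432 RPKM in sham (-0.16). Of 14 markers shared by both pathways, 13 were negative and the median was -0.21 (scaled -0.36). Rarb, a retinoic acid receptor, was lowest at -0.48, and Bcl11b, the transcription factor CTIP2, was at 7.34 RPKM at day 10 and 7.19 RPKM in sham (0.03).

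**Figure D5:**
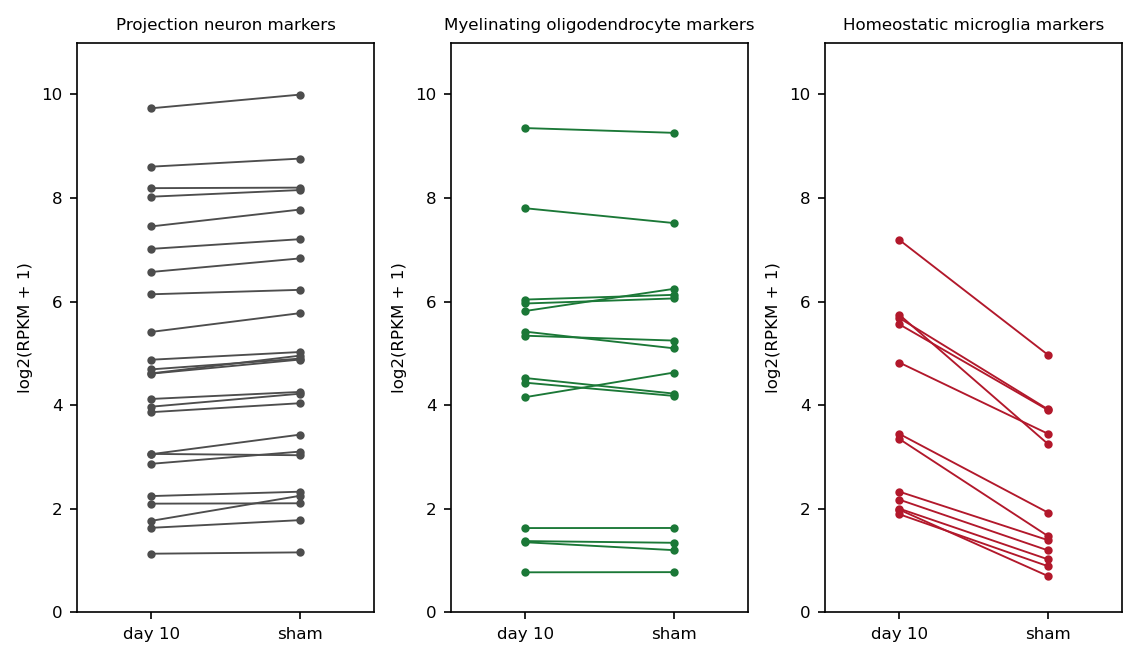
Each line joins 1 gene's log2(RPKM + 1) at day 10, on the left, with its value in sham, on the right, 1 library per side. Projection neuron and myelin markers run nearly level, while all 12 homeostatic microglia markers have positive log2 folds, 9 of them at the size limit or above.

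Other neuronal lists had similar medians. Interneuron markers were at -0.24 (scaled -0.33), with Npy, neuropeptide Y, at 56.2 RPKM at day 10 and 74.1 RPKM in sham (-0.39) and the acetylcholine-making enzyme gene Chat at 1.56 RPKM at day 10 and 1.57 RPKM in sham (-0.01). Presynaptic genes were at -0.19 (scaled -0.34), glutamate receptor and scaffold genes at -0.11 (scaled -0.24), GABA receptor genes at -0.13 (scaled -0.22) and voltage-gated channel genes at -0.13 (scaled -0.24). None of these 60 genes was beyond the size limit, which 4.20% of all analysed genes passed upward and 0.172% downward. Low members were Grin1, the obligate NMDA receptor subunit, at 28.6 RPKM at day 10 and 38.1 RPKM in sham (-0.40), and Slc32a1, the vesicular GABA transporter, with -0.32.

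Energy metabolism genes parted by genome. For the 13 genes of the mitochondrial genome the median was -0.56 (scaled -0.71), and mt-Co3 was at 3303 RPKM at day 10 and 6267 RPKM in sham (-0.92). Only mt-Nd6, which is encoded on the other strand and overlaps mt-Nd5, was positive (0.02). The 20 nuclear respiratory chain genes had a median of -0.08 (scaled -0.23) and lay between -0.33 and 0.21. Glycolytic genes had a median of -0.01 (scaled -0.16), and Hk2, a hexokinase, was highest at 1.75 RPKM at day 10 and 0.537 RPKM in sham (0.84). All 22 ribosomal protein genes were positive, beside 60.9% of all analysed genes. They lay between 0.09 (Rps4x) and 0.77 (Rplp0), with a median of 0.36 (scaled 0.20). The mitochondrial share of reads differed between the libraries as given above, and its part in these values was not tested.

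Only 3 protein coding genes were lower by size. Ttr, transthyretin, the thyroid hormone carrier of choroid plexus, was at 0.205 RPKM at day 10 and 77.4 RPKM in sham (-6.02), and at 729, 303 and 19.6 RPKM at 4 hours, day 1 and day 3. The defining choroid plexus markers Folr1, Kcnj13 and Kl were at 0.145, 0.0164 and 0.0223 RPKM at day 10 against 0.717, 0.210 and 0.0883 RPKM in sham, and 8 of the 10 markers other than Ttr were below sham. Those 10 summed to 9.17 RPKM at day 10 and 7.46 RPKM in sham, with Ttr to 9.38 RPKM at day 10 and 84.9 RPKM in sham, and Kcne2 was at 0 at day 10. The part of choroid plexus tissue in the Ttr value was not tested. Aqp1, a water channel of that epithelium and of other cells, went the other way, at 2.45 RPKM at day 10 and 0.195 RPKM in sham (1.53, ratio 12.6, interval 6.92 to 25.3). Ccl7 was the second gene, and Tekt4, a tektin of cilia, the third, at 0.476 RPKM at day 10 and 2.11 RPKM in sham (-1.07). The next lowest protein coding genes were Tmprss6 (-0.97), mt-Co3, Hmox1, Ccl2, Insl6 (-0.82), 0610009B22Rik (-0.79) and Oxt (-0.78). Hmox1, which degrades haem, was at 16.8 RPKM at day 10 and 31.8 RPKM in sham (-0.88, ratio 0.528, interval 0.481 to 0.580), after 343 RPKM at day 3. Of 5 analysed red cell genes, 1 was higher by size, beside 4.20% of all analysed genes, with a list median of 0.56 (scaled 0.41). It was Alas2, of haem synthesis, at 6.75 RPKM at day 10 and 2.86 RPKM in sham (1.01), and the globin gene Hbb-bs was at 1369.9 RPKM at day 10 and 928 RPKM in sham (0.56).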

How the data were processed

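RNA of 5 pooled libraries was measured by total RNA sequencing of caudate putamen. Tools named per the submitters' processing notes are HISAT2 2.1.0, Trimmomatic 0.36 and StringTie 1.3.4d, with the build GRCm38; their roles, the annotation version and the use of strand are not stated there. The deposited table holds, per the file headers, 1 RPKM value that the authors computed for each gene and library, with a log2 fold and a GFOLD value (a log2 fold shrunk for genes with few reads, at the setting 0.01) for each pair. The deposited GFOLD value served only as an alternative, and no deposited p-value was used, as each side is 1 library.

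GENCODE mouse release 21 held 99.8% of the 19221 gene identifiers and is the source of symbols, gene types and overlaps. Reads were recovered as RPKM times union exon length and library total, and 90.4% to 90.5% of values below 5000 reads came out whole within 0.02. Intervals use the reads divided by 2, so that a read pair would count once; whether both mates were counted is not stated. Medians over 69 gene lists, 24 of cell types and 45 of processes, are over analysed members. The members and lists were chosen with earlier results of these data known, so no list is independent evidence. Named genes were the 15 highest and 10 lowest protein coding genes, the 4 members of largest log2 fold in each list, members against their list, and members whose role orders the text; some are not reported here. Median-of-ratios scaling used genes above 0 in all 5 libraries. Promoter motifs were searched by exact letters. Calculations used Python 3.11.15, pandas 2.3.3 and SciPy 1.17.1, and the calls and intervals were tested on simulated data.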

Additional observations from a re-analysis of the deposited data

How the results depend on the processing

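The number of genes higher by size, 537, and lower, 22, moved by more than 1.5 times under some settings. With a pseudocount of 0.1 RPKM there were 1034 higher and 71 lower, with a floor of 5 RPKM 354 and 9, with a size limit of 1.5 on the log2 scale 239 and 11, and with a limit of 2 109 and 7. Lower genes alone numbered 5 after rescaling without ribosomal RNA, mitochondrial, predicted and small RNA genes, 13 where the counting interval had to leave out 1, 10 by the deposited GFOLD value, 3 among protein coding genes, and 456 with the 4-hour library in place of sham. The 4-hour alternative was chosen after seeing the data and was left unscaled, and the cause of its count was not tested. The pseudocount of 0.5 and the other 2 scalings kept both counts within 1.5 times. No filter and the filter on day 10 or sham could not change the counts. With the pseudocount of 1, every gene past the size limit has at least 1 RPKM in day 10 or sham. Over 733 genes of the lists and the named genes, no log2 fold past the size limit changed sign under these settings. That outcome was fixed in advance and is no check. Pseudocounts and filters keep the sign of a fold, and no scaling factor of day 10 was above 0.16 on the log2 scale. Of 69 list medians, 6 turned sign with a scaling and 3 with a filter, and none of those 9 was above 0.68 in size as reported. With a pseudocount of 0.1 RPKM, 17 list medians were more than 1.5 times larger. List medians that moved by more than 1.5 times in either direction numbered 25 with median-of-ratios scaling and 25 with the rescaling. They numbered 21 with no filter and 22 with the floor of 5 RPKM. With no filter, the median of border-associated macrophage markers went from 0.93 to 0.15, and that of B and plasma cell markers from 1.00 to 0.39. No paired analysis was possible because each group is 1 library. Genes under the filter rest on few reads, and their values are levels only.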

Other observations

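Several high genes belonged to none of the lists and are named after their values were seen. Saa3, an acute-phase apolipoprotein made by macrophages, was at 27.3 RPKM at day 10 and 0.376 RPKM in sham (log2 fold 4.36). Lag3, an inhibitory receptor of T cells that is also expressed in other immune cells, was at 34.5 RPKM at day 10, 4.78 RPKM at day 3 and 3.45 RPKM in sham (3.00, interval of the ratio 8.51 to 11.8). Mpeg1, a pore-forming protein of phagocytes, was at 23.3 RPKM at day 10 and 1.72 RPKM in sham (3.16). Cd83, an activation marker of antigen presenting cells, was at 14.1 RPKM at day 10 and 2.02 RPKM in sham (2.32), and Tspo, a mitochondrial protein used as an imaging target for reactive glia, at 52.2 RPKM at day 10 and 9.45 RPKM in sham (2.35). In all, 363 of the 537 genes higher by size were in none of the lists. The lists held the other 174, among only 689 of the 12783 analysed genes.

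Genes of the phagocyte oxidase, which makes superoxide, were also read after their values were seen. Its membrane subunit Cyba was at 71.4 RPKM at day 10 and 8.06 RPKM in sham (3.00), and the catalytic subunit Cybb at 0.577 RPKM at day 10 and 0.0307 RPKM in sham, under the filter in all 5 libraries. The cytosolic subunits Ncf1 and Ncf4 had log2 folds of 2.03 and 1.47, Rac2 had 1.86, and the proton channel Hvcn1 had 1.73. Ncf1 and Hvcn1 overlap genes on the opposite strand.

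Of the 22 genes lower by size, 19 were not protein coding, among 2675 such genes analysed, and 8 of them were snoRNA and 7 miRNA genes. Of 218 miRNA genes analysed 26 were higher by size, and of 113 snoRNA genes none was. Of all analysed genes, 4.20% were higher by size and 0.172% lower. Some calls among these short genes rest on few reads. Mir7676-1 had 13 reads at day 10 and 0 in sham. Mir6979 had 1 read at day 10 and 12 in sham, and the interval of its ratio, 6.8e-05 to 1.05, holds 1. The predicted miRNA gene Gm24187 was at 166 RPKM at day 10 and 4366 RPKM in sham, and at 29.4, 32.2 and 46.1 RPKM at 4 hours, day 1 and day 3. Of the 5 libraries, the sham library was the one that stood apart for this gene. The transcript of the microRNA gene Mir21a, which overlaps exons of Vmp1 on the same strand, was at 0.679 RPKM at day 10 and 9.92 RPKM in sham. These levels rest on 3 reads at day 10 and 41 in sham (interval of the ratio 0.00465 to 0.330). Among snRNA genes, 9 of 44 were higher by size and none was lower.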
